A study of Mus musculus with 2 samples.

Results

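Interferon-induced genes, the IRF transcription factors and the interferon receptors were followed in hindlimb skeletal muscle of mice that overexpress syntaxin 4, a plasma membrane SNARE protein of vesicle fusion. The genes were taken by symbol: the Ifit, Ifitm, Ifi, Oas, Oasl, Gbp and Irgm families, Irf and Mx genes, Stat2, and a short list of further induced genes, nucleic acid sensors and receptor subunits. The rule found 77 probe sets for 73 genes, of 19938 genes with a probe set of their own. The study hybridised 2 arrays, 1 for male C57BL/6J mice of the Wild-type genotype and 1 for male C57BL/6J mice with a Syn4 transgene (overexpression). Mice of both genotypes received standard chow. The sources used here do not give the number of mice behind an array, any pooling of RNA, the age of the mice or the promoter of the transgene.

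Cells make interferons when sensors such as RIG-I and MDA5 meet foreign nucleic acid. Type I interferons act through IFNAR1 and IFNAR2, which activate a complex that holds STAT2 and IRF9, and this complex binds the interferon-stimulated response element (ISRE) in front of its target genes. Interferon gamma acts through IFNGR1 and IFNGR2, and its signal reaches genes through the gamma-activated site (GAS). The target genes encode proteins that block steps of viral growth, attack the vacuoles of intracellular microbes, or feed back on the pathway. In muscle this set of genes is well known from inflammatory muscle disease, and resting tissue holds a low tonic level.

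Values are log2 intensities, as the authors' table gives them, and each difference is the Syn4 transgenic array minus the Wild-type array. With 1 array per genotype no difference could be set against the spread between mice, and no p-value or SD exists. The transgene was visible, since Stx4a was at 8.84 (Wild-type) and 12.20 (transgenic). The labelled tissue carried its fibre markers, with the actin gene Acta1 at 14.44 and 14.45 and the creatine kinase gene Ckm at 14.43 and 14.40. To judge level, 2 reference points were used: 5.42, the 95th percentile of 1027 olfactory receptor genes, which muscle is not thought to use, and 6.79, the median over all genes of the higher of both values. The higher value stayed under 5.42 in 21 of the 73 genes and reached 6.79 in 36.

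Many of these genes share a short motif near their transcription start. RefSeq windows of assembly GRCm38.p6, from 250 bases before to 50 bases after each transcription start, were matched to 55 of the 73 genes, with 66 windows in all because some genes have several starts. A gene was counted when any of its windows held the motif. The ISRE core, searched as GAAA, any 2 bases and GAAA, or on the other strand as TTTC, any 2 bases and TTTC, stood in the window of 27 of these 55 genes (49.1%), against 605 of 15563 genes on the array with a window (3.89%). By window the shares were 40.9% and 3.27%. Matches may overlap each other. In Ddx58, Ifih1 and Ifitm3 every ISRE core began within the transcript. Among the Ifi200 genes of chromosome 1, 6 (Ifi203, Ifi206, Ifi207, Ifi208, Ifi213 and Ifi214) carried the same letters, GAAATCGAAA. A match of letters is a description and does not show that a factor binds there. Shown here are the gene past 1.5-fold that was over 6.79 and has a window (Ifi205), and 2 more Ifi200 genes, Ifi207 and Ifi203. A gene with 2 ISRE cores and almost equal values (Ifit3) and the gene with the most negative difference (Xaf1) follow. Ifi207, Ifi203 and Ifit3 were picked after their values were seen. Each is written 5′ to 3′ along the gene, and capitals mark the ISRE core.
Ifi205 (chr1:174031706-174032005, minus strand): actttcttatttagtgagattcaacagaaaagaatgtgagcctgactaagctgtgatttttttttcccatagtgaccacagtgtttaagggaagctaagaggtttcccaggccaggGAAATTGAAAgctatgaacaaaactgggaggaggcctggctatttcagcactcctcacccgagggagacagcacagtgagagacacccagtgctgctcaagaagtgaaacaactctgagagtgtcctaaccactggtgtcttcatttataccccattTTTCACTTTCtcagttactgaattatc
Ifi207 (chr1:173741760-173742059, minus strand): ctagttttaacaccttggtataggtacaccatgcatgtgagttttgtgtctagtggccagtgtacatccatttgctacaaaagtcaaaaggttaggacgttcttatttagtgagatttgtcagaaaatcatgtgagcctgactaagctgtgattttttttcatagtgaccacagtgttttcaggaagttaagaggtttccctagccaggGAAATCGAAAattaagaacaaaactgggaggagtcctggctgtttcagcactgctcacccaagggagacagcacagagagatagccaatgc
Ifi203 (chr1:173942443-173942742, minus strand): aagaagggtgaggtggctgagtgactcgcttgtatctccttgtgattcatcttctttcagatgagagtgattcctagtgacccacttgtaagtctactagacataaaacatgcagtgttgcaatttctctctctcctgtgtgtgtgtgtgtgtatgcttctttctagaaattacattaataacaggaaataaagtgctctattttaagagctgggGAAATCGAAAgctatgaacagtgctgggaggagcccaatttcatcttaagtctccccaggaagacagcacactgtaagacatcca
Ifit3 (chr19:34583279-34583578, plus strand): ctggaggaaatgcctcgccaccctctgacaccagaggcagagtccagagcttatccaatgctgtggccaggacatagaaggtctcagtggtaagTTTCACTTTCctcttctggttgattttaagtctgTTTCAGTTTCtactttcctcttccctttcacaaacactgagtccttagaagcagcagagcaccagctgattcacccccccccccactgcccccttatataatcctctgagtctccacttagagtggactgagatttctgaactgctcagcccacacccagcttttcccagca
Xaf1 (chr11:72301379-72301678, plus strand): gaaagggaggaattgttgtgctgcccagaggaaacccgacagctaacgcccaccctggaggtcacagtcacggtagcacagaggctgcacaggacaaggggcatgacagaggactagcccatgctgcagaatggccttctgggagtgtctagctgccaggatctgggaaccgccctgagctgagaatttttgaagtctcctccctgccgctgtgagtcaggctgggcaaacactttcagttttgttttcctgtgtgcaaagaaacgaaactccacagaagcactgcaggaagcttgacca

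In Ifi205 an ISRE core began 134 bases before the start and another within the transcript, at base 24. In Ifi207 it began 41 bases and in Ifi203 35 bases before the start of the window shown. Ifi203 has another window, further upstream, with no ISRE core. Ifit3 held its 2 cores 156 and 122 bases before the start, and Xaf1 held neither an ISRE core nor a GAS core in this window. The median difference was 0.11 over the 27 genes with a core, 0.14 over the 28 without and 0.11 over the 18 genes with no window. Ifi27l2a, Iigp1 and Gbp9, all past 1.5-fold, are among those 18. A gene without a core is only one with no exact match in its windows. The split therefore cannot show whether the core goes with a difference.

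Across the 73 genes the transgenic array was more often the higher one. By the rule of size, 1.5-fold, 5 genes were higher in the transgenic array (Ifi27l2a, Iigp1, Ifit2, Ifi205 and Gbp9) and none was lower, where 1.76% of all genes were higher and 1.19% lower by as much. The 5 genes are 6.85% of the 73. At 2-fold only Ifi27l2a remained, where 0.476% of all genes were higher. A positive difference was seen in 47 genes, a negative one in 22 and none in 4. That is 64.4% above 0, against 46.9% of all genes. The median difference was 0.13 against 0.00 over all genes, and the middle 95% of all genes ran from -0.47 to 0.51. These counts describe 2 libraries. In such bulk tissue, a change in the number of cells of a type and a change in RNA per cell cannot be told apart.

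The genes were also split by level. Of the 35 genes whose mean of both arrays reached the median mean of all genes, 28 were above 0 (80.0%, against 53.4% of all such genes), with a median of 0.22 against 0.02. Iigp1, Gbp9 and Gbp3 reach that mean only through their transgenic value, so this count is a description and supports nothing about level. Of the 38 genes under that mean, 19 were above 0 (50.0%, against 40.5%), with a median of 0.03 against -0.04.

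**Figure D1:**
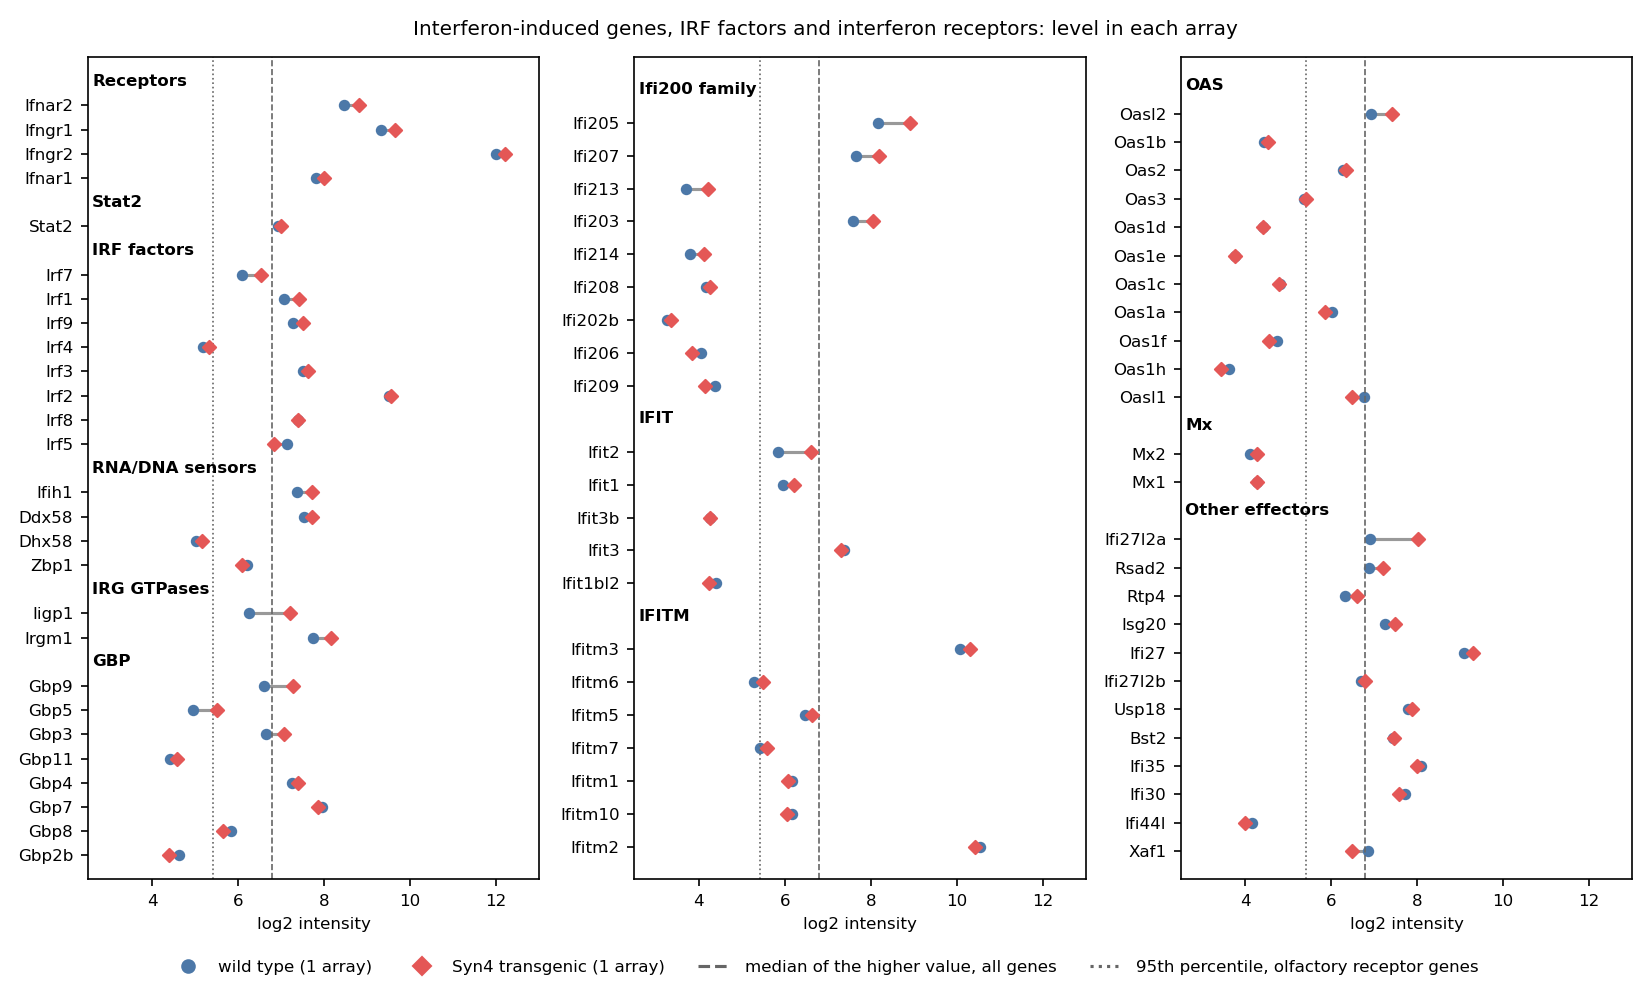
Level of each of the 73 genes in the Wild-type array (circles) and the Syn4 transgenic array (diamonds), as log2 intensity on the horizontal axis, grouped by role and sorted by difference, with 1 array per genotype and no error. The dashed line is the level of 6.79 and the dotted line the olfactory receptor level of 5.42. The longest lines join the values of Ifi27l2a (6.91 and 8.02) and Iigp1 (6.26 and 7.20).

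**Figure D2:**
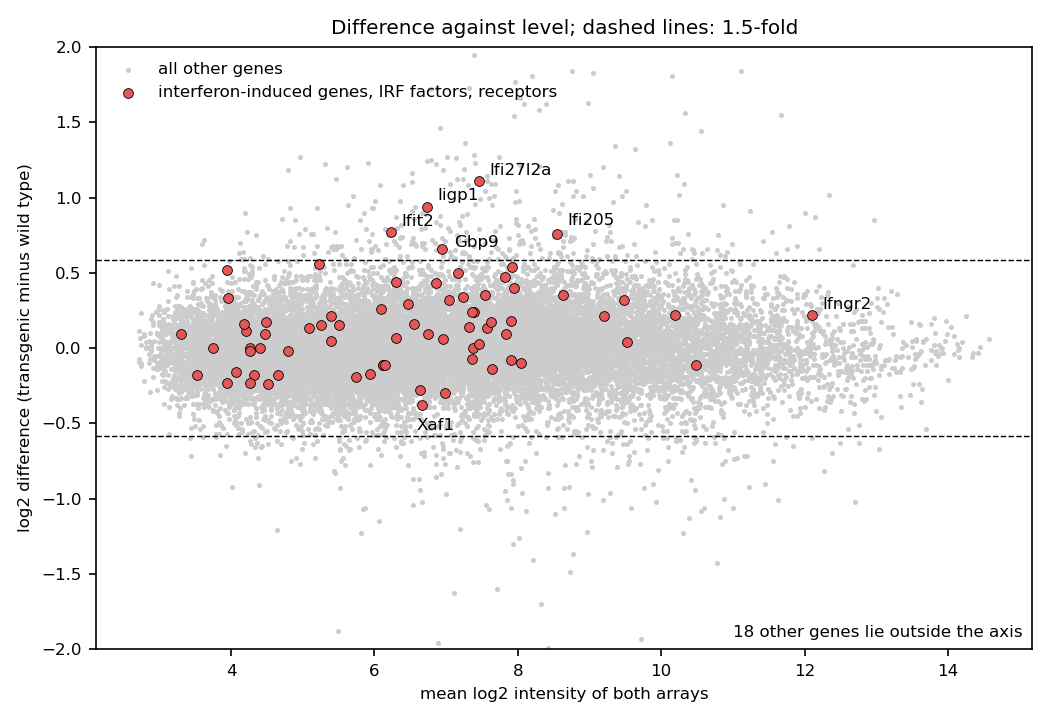
Log2 difference (transgenic minus Wild-type) against the mean log2 intensity of both arrays for the 73 genes (red) and all other genes (grey), with 18 other genes beyond the axis. The dashed lines mark 1.5-fold: 5 red points lie above the upper line and none below the lower one.

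All receptor subunits had somewhat higher values in the transgenic array and none reached 1.5-fold. Ifnar2, the subunit that holds type I interferon tightly, was at 8.45 (Wild-type) and 8.80 (transgenic), a difference of 0.35. Its partner Ifnar1 was at 7.81 and 7.99. Ifngr1, the ligand-binding chain for interferon gamma, was at 9.32 and 9.64, and the signalling chain Ifngr2 at 11.99 and 12.21. The median over these 4 genes was 0.27. Of all genes whose mean reached the median mean, 53.4% were above 0. From 6.67% (for Ifnar2) to 19.8% (for Ifnar1) of all genes differed upward by at least as much as these receptor genes. The adaptor and transcription factor gene Stat2 was nearly equal, at 6.93 and 6.99. Ifi44 and Ifit1bl1 were not analysed here.

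The IRF factors were mixed and small in difference. Of 8 genes, 6 were above 0, Irf5 was below and Irf8, a factor of myeloid cells, was at 7.38 in both arrays, with a median of 0.14. Of all genes, 46.9% were above 0. Irf7, which amplifies type I interferon production and is itself induced by it, had the largest difference at 0.44, but its values of 6.08 and 6.52 lay under the level of 6.79. Irf9, the DNA-binding part of the type I complex, was at 7.27 and 7.51. Irf5, which acts downstream of Toll-like receptors, was the lowest at 7.13 and 6.83. Irf1, a factor induced by interferon gamma, gave no single answer: the probe set with more signal was at 7.07 and 7.41, while its other probe set was at 6.06 and 5.90. Irf2, which opposes Irf1 (0.04), the constitutive factor Irf3 (0.13) and the lymphoid factor Irf4 (0.15) lay between.

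Among the sensors of foreign nucleic acid, Ifih1, which encodes the long double-stranded RNA sensor MDA5, was at 7.37 (Wild-type) and 7.72 (transgenic). Ddx58, which encodes RIG-I, was at 7.54 and 7.71. Both were over 6.79 in both arrays and higher in the transgenic one. Their regulator Dhx58 (5.02 and 5.15) stayed under the olfactory receptor level, and the Z-form nucleic acid sensor Zbp1 was at 6.20 and 6.09.

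The GTPases that interferon gamma induces against vacuolar microbes included 2 of the 5 genes past 1.5-fold. Iigp1, an immunity-related GTPase that coats parasite vacuoles, was at 6.26 (Wild-type) and 7.20 (transgenic), 1.92-fold higher. Gbp9, a guanylate-binding protein gene, was at 6.61 and 7.27, 1.58-fold higher. For both genes the Wild-type value was under 6.79, so they reach that level only through the transgenic array. Irgm1, which restrains the other immunity-related GTPases, was at 7.75 and 8.15, a difference of 0.40. The probe set shared by Irgm2 and Igtp, of the same class, was at 7.65 and 8.09.

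The other guanylate-binding protein genes differed in direction. Of 8 measured genes, 5 were above 0 and 3 below, with a median of 0.16, where 46.9% of all genes were above 0. Gbp5, which promotes inflammasome assembly, differed by 0.56 at values of 4.95 and 5.51, close to the olfactory receptor level. Gbp3 was at 6.64 and 7.07, whereas Gbp7 was at 7.94 and 7.86. Gbp2b was the lowest at 4.63 and 4.39, and Gbp4 (0.14), Gbp11 (0.17) and Gbp8 (-0.19) completed the group. A probe set that the annotation gives to 6 of these genes (Gbp4, Gbp6, Gbp8, Gbp9, Gbp10 and Gbp11) was at 9.30 (Wild-type) and 8.81 (transgenic). Its difference of -0.49 runs opposite to that of the probe set for Gbp9 alone, so the direction for this near-identical family is uncertain. The probe set of Gbp2 and Gbp2b together was at 6.93 and 7.20.

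The Ifi200 genes, which encode nuclear DNA-binding proteins of the PYHIN family, had a higher median than the other groups of over 2 genes. Of 9 genes on chromosome 1, 7 were above 0, with a median of 0.33, where 46.9% of all genes were above 0. Ifi205 was at 8.16 (Wild-type) and 8.92 (transgenic), 1.69-fold higher. Ifi207 was at 7.65 and 8.19, and Ifi203 at 7.58 and 8.05. These are the 3 genes of the group with signal over 6.79, and each was higher in the transgenic array. Of all genes whose higher value reached that level, 53.5% were above 0. The probe set that Ifi211 and Ifi204 share was at 7.23 and 7.70, a difference of 0.47. The other 6 genes were under the olfactory receptor level in both arrays, with differences from -0.23 (Ifi206, 4.06 and 3.83, and Ifi209, 4.38 and 4.15) to 0.52 (Ifi213, 3.69 and 4.21), with Ifi214 at 0.33, Ifi208 at 0.11 and Ifi202b at 0.09. The genes of this cluster arose by duplication and share sequence, so signal may be split between them and the values are not independent of each other.

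**Figure D3:**
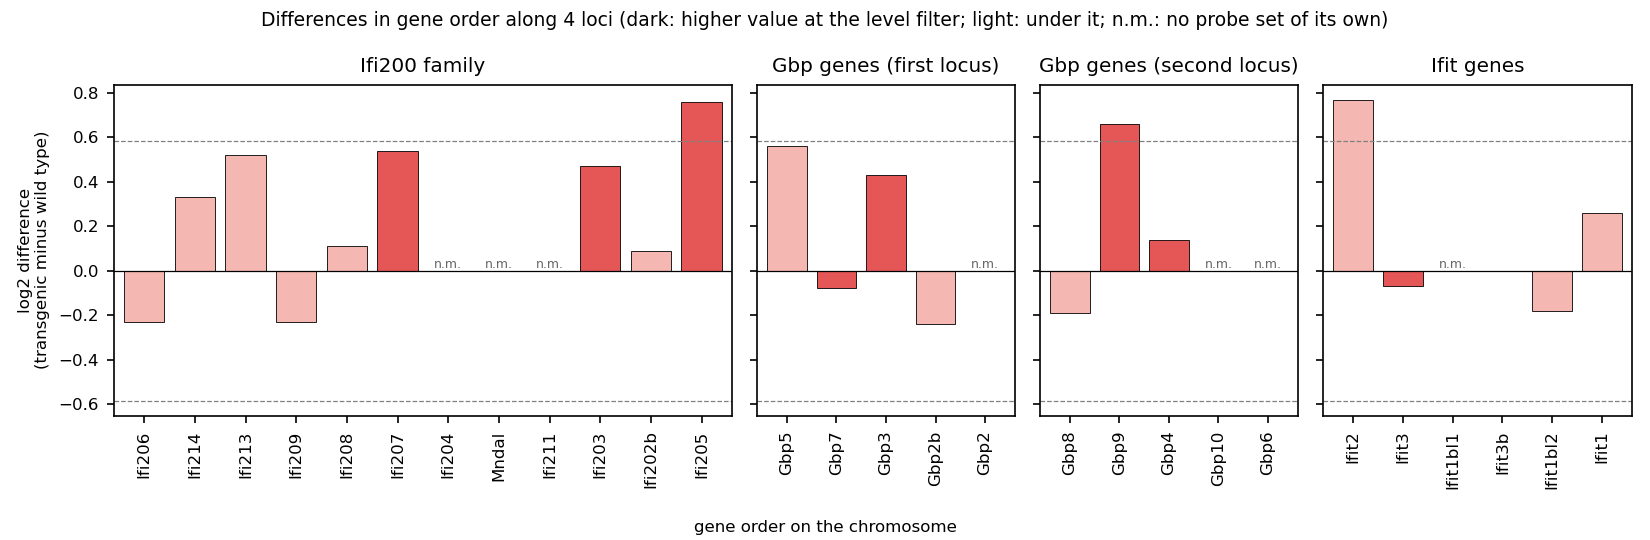
Log2 difference (transgenic minus Wild-type, vertical axis) of the genes of 4 loci in their chromosome order, as bars from 0, with dashed lines at 1.5-fold. Dark bars have a higher value of at least 6.79 and n.m. marks a gene without a probe set of its own. Each locus holds bars on either side of 0, and the 3 dark bars of the Ifi200 locus lie between 0.47 and 0.76.

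The IFIT genes, whose products bind viral RNA and hinder its translation, differed from one another. Ifit2 was at 5.84 (Wild-type) and 6.61 (transgenic), 1.71-fold higher, with both values under 6.79. Ifit1 was at 5.96 and 6.22. Ifit3 was the gene of this group with signal over 6.79 and stood at 7.39 and 7.32. Its near copy Ifit3b was at 4.26 in both arrays and Ifit1bl2 at 4.41 and 4.23. Ifit1 and Ifit1bl2 face away from each other. The window of Ifit1 and 1 window of Ifit1bl2 share 245 bases, with the same pair of ISRE cores, which counts for both genes. Ifit1bl2 has another window with no ISRE core. The group's median was 0.00.

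The IFITM genes, whose membrane proteins block entry of enveloped viruses, were close to equal. Of 7 genes, 4 were above 0 and the median was 0.15. Ifitm3, the main antiviral member, was at 10.08 and 10.30. Ifitm2 had 3 probe sets, at 10.54 and 10.43, at 10.01 and 9.99, and at 9.35 and 9.38. Both probe sets of Ifitm1 were lower in the transgenic array, by 0.11 and 0.32 on the log2 scale, at 6.18 and 6.07 and at 4.97 and 4.65. Ifitm6 (0.21), Ifitm5 (0.16), which is a gene of bone cells, Ifitm7 (0.15) and Ifitm10 (-0.11) were under 6.79 in both arrays.

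The OAS family takes its name from oligoadenylate synthetases, which activate RNase L on double-stranded RNA. Its genes split evenly here, and whether each product is an active enzyme was not tested. Of 11 genes, 4 were above 0, 5 below and 2 at 0. Oasl2 was the gene of this group with signal over 6.79, at 6.92 and 7.42, a difference of 0.50, and its relative Oasl1 was the lowest at 6.77 and 6.49. Oas1a was at 6.02 and 5.85, and the probe set it shares with Oas1g at 5.57 and 5.65. Oas2 (0.07) and Oas3 (0.05) were near equal. The Oas1 copies Oas1b, Oas1c, Oas1d, Oas1e, Oas1f and Oas1h were under the olfactory receptor level, with differences from -0.18 to 0.09. The dynamin-like antiviral genes Mx1 (4.28 and 4.26) and Mx2 (4.10 and 4.26) were under it too. Mx1 is known to be defective in most laboratory strains.

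The remaining effector genes held the largest difference of all 73. Ifi27l2a, a small interferon-inducible protein of the ISG12 family, was at 6.91 (Wild-type) and 8.02 (transgenic), 2.16-fold higher, and 0.361% of all genes differed by at least as much in that direction. Its neighbours of the same family on chromosome 12 differed far less: Ifi27 was at 9.10 and 9.31, and Ifi27l2b at 6.70 and 6.79. Of the 12 effector genes, 8 were above 0, with a median of 0.09, where 46.9% of all genes were above 0. Rsad2, which encodes the radical SAM enzyme viperin, was at 6.88 and 7.20, and the chaperone gene Rtp4 at 6.32 and 6.61. The exonuclease gene Isg20 was at 7.24 and 7.48. Usp18, the protease that removes ISG15 and dampens receptor signalling, was at 7.79 and 7.88, and the virus tether Bst2 at 7.44 and 7.47, a difference of 0.03 that turned to -0.01 with quantile normalization repeated. On the other side stood Ifi35 (-0.10), the lysosomal thiol reductase gene Ifi30 (-0.14), Ifi44l (-0.16, under the olfactory receptor level) and the apoptosis-related gene Xaf1. Xaf1 was at 6.86 (Wild-type) and 6.48 (transgenic), the most negative difference of the 73 genes at -0.38. The probe set for the ubiquitin-like modifier gene Isg15, shared with Gm9706, was at 4.90 and 4.95, and that of Olfr56 and the GTPase gene Ifi47 at 4.43 and 4.57.

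The level of signal does not rank transcripts, because probe sets differ in how well they hybridise. The 5 genes with the highest mean signal were Ifngr2, Ifitm2, Ifitm3, Irf2 (9.51 and 9.55) and Ifngr1, and each was within 0.32 of equal between the arrays.

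A second list held interferon-induced genes outside the symbol rule. Of 54 measured genes, 1 was higher by 1.5-fold and none lower, 37 were above 0 and 15 below, with a median of 0.12. The helicase-like Slfn8, a Schlafen family gene, was at 5.14 (Wild-type) and 5.82 (transgenic), 1.60-fold higher with both values under 6.79. The lowest was Psme1, a subunit of the proteasome activator PA28, at 9.80 and 9.53. A single gene past 1.5-fold among 54 is near the 1.76% of all genes, and the share above 0 (68.5%) is above the 46.9% of all genes.

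Upstream genes, meaning the ligands, Toll-like receptors, adaptors, kinases and negative regulators, had 37 measured genes. Of these, 1 was higher by 1.5-fold and none lower, 25 were above 0 (67.6%, against 46.9% of all genes) and 11 below, with a median of 0.05 against 0.00. A single gene past 1.5-fold is near the 1.76% of all genes. Tlr4, the receptor for bacterial lipopolysaccharide, was at 6.80 (Wild-type) and 7.45 (transgenic), 1.57-fold higher. Mavs, the mitochondrial adaptor of RIG-I and MDA5, was the lowest at 10.77 and 10.31. Of the measured ligand genes only Ifnb1 was above 0, at 4.15 and 4.32, and it was under the olfactory receptor level. Ifng was at 5.04 and 4.75, Ifna2 at 5.43 and 5.01, and Ifna4 at 4.05 and 3.76. Ifnl2, a type III interferon gene and the one ligand gene over 6.79, was at 7.81 and 7.40. These ligand genes were chosen with their values in view.

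**Figure D4:**
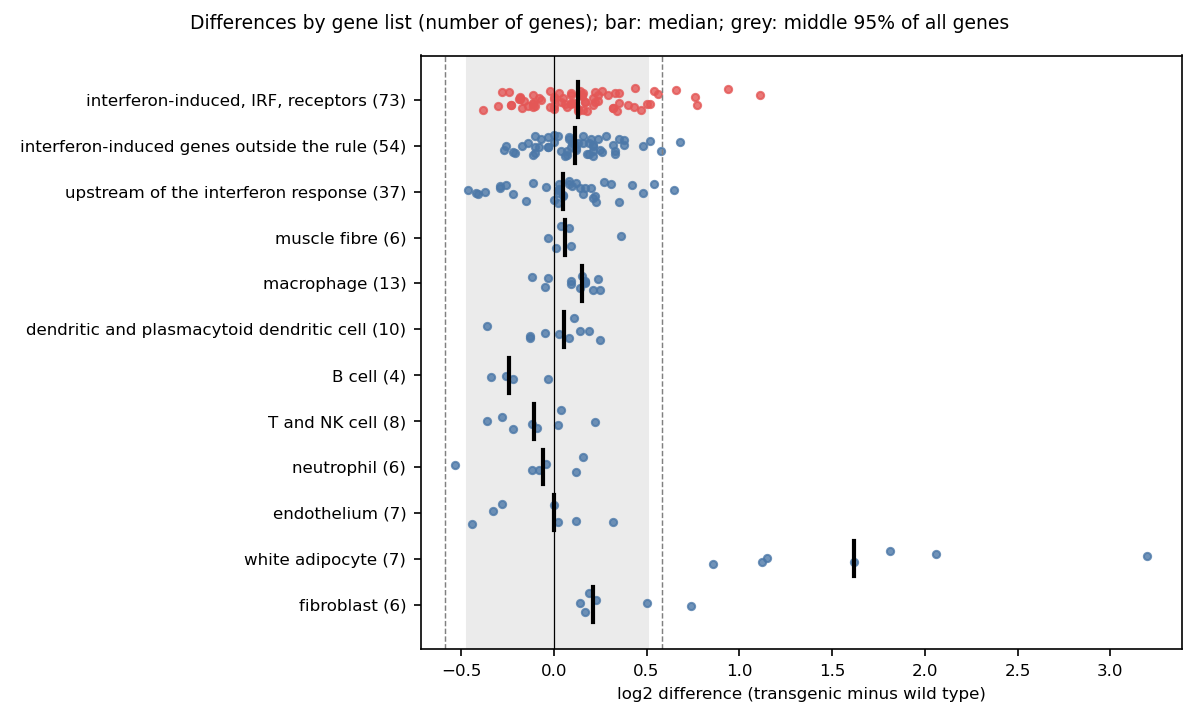
Log2 difference (transgenic minus Wild-type, horizontal axis) of each gene in the 73-gene group (red), in the 2 further interferon lists and in 9 marker lists (blue), with the number of genes in brackets, the median as a black bar and dashed lines at 1.5-fold. The grey band is the middle 95% of all genes, -0.47 to 0.51. The 7 white adipocyte markers lie to the right of every other list's median, between 0.86 and 3.20.

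Markers of other cells in the tissue also differed between the arrays, and their part in the interferon gene values was not tested. Beside the marker counts, 46.9% of all genes were above 0 and 1.76% were higher by 1.5-fold. All 7 measured white adipocyte markers were higher by at least 1.5-fold in the transgenic array, and their summed linear intensity went from 1136 to 3686. Fibroblast genes were above 0 in 6 of 6, with sums of 13130 and 15008 and Lum past 1.5-fold. Macrophage markers were above 0 in 10 of 13, none by 1.5-fold, with a median of 0.15 and sums of 2928 and 3196. The macrophage markers Csf1r (8.34 and 8.51) and C1qb (8.33 and 8.50) were well over the level of 6.79. Those below 0 were Adgre1 (6.75 and 6.63), Cd68 (7.03 and 6.98) and Itgam (6.08 and 6.05). Dendritic cell markers had sums of 1498 and 1550 (6 of 10 above 0). Tcf4 (9.75 and 9.89) had the most signal of these 10 and weighs most in their sums. The lowest difference was that of Zbtb46 (-0.36, 7.32 and 6.96), and 4 of the 10 were under the olfactory receptor level. Bst2 is in this list and also among the interferon genes followed here. These sums are therefore no measure of dendritic cell number. Endothelial markers had sums of 6580 and 6100 (3 of 7 above 0). Lymphocyte and neutrophil markers had no gene at 6.79. Their sums were 166 and 139 for B cells (0 of 4 above 0), 292 and 263 for T and NK cells (3 of 8), and 211 and 202 for neutrophils (2 of 6).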

How the data were processed

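Muscle RNA of each genotype was measured on 1 whole-transcript array. The authors' deposited values are log2 intensities of 35556 probe sets, made with RMA in Partek per the submitters' processing notes; the sources used here give neither versions nor steps. Both arrays had a median of 6.06. The number of arrays limits the precision, and RMA may understate large folds. Probe sets were named through GEO's platform annotation, parts of which may be outdated: 21789 probe sets had 1 symbol, 1621 several and 12146 none. For the 999 genes with several probe sets the one with the highest mean was used; the few probe sets of several symbols named here stay out of all counts.

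Differences were computed with no filter and counted at 1.5-fold (0.58 on the log2 scale). The text gives both values for genes past 1.5-fold, the extremes of each role, the 5 genes with the highest mean, and genes with several probe sets; others mostly by difference. The alternatives were level filters, 2-fold, averaged or unique probe sets, median centring, loess (span 0.3, 3 iterations), repeated quantile normalization and leaving out families that share sequence (Ifi200, OAS, GBP, immunity-related GTPases, Ifit3 and Ifit3b). Python 3.11.15, pandas 2.3.3 and statsmodels 0.14.6 were used. The members, lists and tests were chosen with earlier results of these data known. Sequences are RefSeq windows of GRCm38.p6; the array's own build is not given, so no probe coordinates are printed.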

Additional observations from a re-analysis of the deposited data

How the results depend on the processing

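No paired analysis was possible because each genotype has 1 array and no test was made, and for the same reason no replicate could be left out. The 5 genes past 1.5-fold stayed past it under median centring, loess, repeated quantile normalization and averaged probe sets, with ranges of 1.07 to 1.11 for Ifi27l2a, 0.91 to 0.94 for Iigp1, 0.76 to 0.79 for Ifit2, 0.72 to 0.76 for Ifi205 and 0.63 to 0.66 for Gbp9. The probe set that Gbp9 shares with other Gbp genes, at -0.49, enters none of these settings. They could therefore not test the direction of Gbp9. Loess added Gbp5 (0.61). None of the 73 genes was lower by 1.5-fold under any alternative. At 2-fold, 1 of the 73 genes was higher, and 0 of the further interferon-induced and 0 of the upstream genes. Without the Ifi200, OAS, GBP and immunity-related GTPase genes, Ifit3 and Ifit3b, which share sequence, 2 genes (Ifi27l2a and Ifit2) were higher and 29 of 41 were above 0. With the filter on the higher value, 28 of 36 were above 0 (median 0.215, against 53.5% and 0.03 over all genes so filtered), and with that on the mean 28 of 35 (median 0.22); fewer genes enter these counts, and Iigp1, Gbp9 and Gbp3 pass both filters only through their transgenic value. On the higher value, Ifi27l2b likewise passes only through the transgenic array and Xaf1 only through the wild-type one. Under either filter 0 of the further interferon-induced genes were higher by 1.5-fold, and the upstream median was 0.16 and 0.13. It was 0.08 with the olfactory receptor filter and with genes of 1 probe set, and 0.0275 with repeated quantile normalization. The medians of the IFIT and OAS genes, 0.00 as deposited, were 0.04 and 0.03 after loess and -0.02 and -0.01 after quantile normalization, so they have no direction. Bst2, Mx1 and Oas1c, all within 0.03 of 0, changed sign under loess or quantile scaling. Averaging probe sets moved 2 of the 73 differences by over 0.1: Irf1 to 0.09 and Ifitm1 to -0.215. A variant of the core with 1 more T, TTTTC, any 2 bases and TTTC, was in the windows of 3 of 55 genes (5.45%), against 1.16% of genes with a window. It asks for a T in front of the core. Both ISRE cores of Ifit3, printed above, have a G there, so such sites are left out. The fall from the 27 genes with the ISRE core therefore does not show how many hold a longer ISRE.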

Other observations

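The GAS core, searched as TTC, any 3 bases and GAA, which reads the same on both strands, was in the promoter window of 15 of the 55 genes (27.3%), against 9.01% of the genes on the array with a window. Gbp5 and Gbp7, neighbours on chromosome 3, each held 2 GAS cores and 1 ISRE core, and their differences were 0.56 and -0.08. Irf8, with 2 GAS cores, was at 7.38 in both arrays. These genes were chosen after their values were seen.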
